A study of Mus musculus with 4 samples.

Results

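Scavenger receptors are surface proteins with which macrophages bind and take up modified lipoproteins, microbes, dying cells and particles. The genes described here are Cd36, Msr1, Marco, Scarb1, Cd68 and Olr1, together with Cd5l. Cd5l encodes a secreted protein built of scavenger receptor cysteine-rich (SRCR) domains, a type of domain found in some but not all of these receptors. The 7 genes were chosen by name, and every probe set that the platform annotation assigns to 1 of them was looked up. The annotation lists 10 such probe sets. Of these, 8 had values, out of 10649 probe sets with values on the arrays, and they covered 6 of the 7 genes. The single probe set of Olr1, the lectin-like receptor for oxidised low-density lipoprotein (LDL), and a second one of Cd68 were blank on all arrays, so Olr1 was not analysed here.

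RNA came from mouse peritoneal macrophages that lack Pparg (KO, 2 arrays) and from macrophages wild type for it (WT, 2 arrays), both on a mixed 129/SV and C57BL/6 background. Pparg encodes PPARγ, a nuclear receptor activated by fatty acids. The cells had been drawn into the peritoneal cavity by 2.5 ml of 3% thioglycollate, an irritant, and were collected 3 days later, left to adhere for 5 h in 10% serum and kept for 24 h in 0.5% serum without a ligand or stimulus. How and in which cells the gene was deleted, and the age of the mice, are not given in the sources used here. Nor is it stated that each array had its own animal, so the p-values reflect array-to-array spread alone, and that spread may be technical.

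As background, scavenger receptors fall into structural classes. Msr1 and Marco are class A receptors with a collagen-like stalk, Cd36 and Scarb1 are class B receptors that cross the membrane at both ends, and Cd68 is a heavily glycosylated protein of late endosomes and lysosomes that marks macrophages. In macrophages Cd36 is the textbook target of PPARγ, since the receptor's ligands raise it and CD36 then brings in oxidised LDL. Cd5l, also called apoptosis inhibitor of macrophages, is known as a target of the liver X receptors (LXRs), nuclear receptors activated by oxysterols.

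The letters upstream of Cd5l and Cd36 are shown because Cd5l was the gene of the set whose signal differed and Cd36 is the best-known PPARγ target in it. Each is the 250 bases before the start that RefSeq annotates on GRCm38.p6, read along the gene's own strand. Capitals mark AGGTCA, the half-site of the PPAR and LXR families, or its complement. The Cd5l window lies at chr3:87357631-87357880 on the + strand, and the Cd36 window at chr5:17835897-17836146 on the - strand.
Cd5l: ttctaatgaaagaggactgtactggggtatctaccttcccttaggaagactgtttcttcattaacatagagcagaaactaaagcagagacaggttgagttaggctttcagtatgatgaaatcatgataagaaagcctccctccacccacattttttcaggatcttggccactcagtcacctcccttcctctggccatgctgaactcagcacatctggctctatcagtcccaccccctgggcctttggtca
Cd36: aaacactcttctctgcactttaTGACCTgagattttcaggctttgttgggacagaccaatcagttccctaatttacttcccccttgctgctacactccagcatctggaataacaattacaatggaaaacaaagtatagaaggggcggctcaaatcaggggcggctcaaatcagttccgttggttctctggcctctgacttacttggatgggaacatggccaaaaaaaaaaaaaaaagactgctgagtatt
Cd5l has no AGGTCA in this window on either strand. Cd36 has 1, beginning 228 bases before the start. Over all 32851 RefSeq windows of this length, 14.0% hold the half-site on either strand. Neither window has AGGTCA repeated directly with 1 base between the copies, the form known for PPARs (0.0335% of all windows, 11 in number). The same repeat with 4 bases between, the form known for LXRs (0.0152%, 5 in number), is also in neither. Of the 5 genes of the set that the table of promoters holds, Olr1 is the other one with a half-site, and Marco and Cd68 have none. Cd36 has several alternative starts, and only this one is listed. A match is a run of letters, and these windows say nothing about binding.

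The values used are signals in intensity units as deposited. The median signal of an array ran from 136.7 to 142.0, and 12 control probe sets of the opposite strand (antisense controls), which should detect no transcript, had medians from 103.8 to 116.0. All 11 macrophage marker genes of the list, among them Adgre1, Csf1r, Itgam and Lyz2, exceeded the antisense control median on all 4 arrays. So did 6 of 7 B cell markers and 4 of 4 erythroid markers with values. On each array 96.0% to 99.7% of tested probe sets exceeded it, so this bar does not tell cell types apart. The targeted gene was barely measurable. Pparg read 43.0 and 40.6 on the KO arrays and 61.1 and 73.1 on the WT arrays. None of the 4 signals reached the median of the antisense controls, so no difference is given, and the probe set checks nothing if it lies outside the deleted part.

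Among the 7 probe sets of the set that were bright enough to be tested, Cd5l was higher in KO and no other passed. The test was limma's over all 6389 probe sets above a signal of about 111, on the log2(signal + 16) scale and two-sided, and a probe set passed at a Benjamini-Hochberg adjusted p under 0.05. Of all tested probe sets, 3.55% passed, 1.02% as higher in KO and 2.54% as lower. With 1 of 7 higher and 0 of 7 lower, the set holds a single call. Its median log2 difference was 0.04, against -0.02 over all tested probe sets. The KO arrays lay wholly above the WT arrays at 2 of the 7, Cd5l and 1 probe set of Msr1, where 32.4% of all tested probe sets had groups that did not overlap in one direction or the other.

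Cd5l had signals of 287.5 and 320 on the KO arrays, against 191.7 and 178.4 on the WT arrays. The lower KO array thus stood well above the higher WT array, and all 4 exceeded the brightest antisense control of their array. The means were 304 ± 23.0 in KO and 185 ± 9.40 in WT (SD, n = 2 each), a log2 difference of 0.67 (SE 0.12, limma adjusted p = 1.24e-06), which is 1.59-fold with an interval of 95% from 1.36 to 1.86. Without the added 16 the ratio of the means was 1.64. Counted by gene, 53 of 5002 rose and 3.72% passed in either direction, and Cd5l had the 11th largest rise. More Cd5l RNA per macrophage and a larger share of cells that make it cannot be told apart in such samples.

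The call rests on how the spread was estimated. limma found no more variation between probe sets than their brightness gave, so it lent each one a spread shared by all probe sets of like signal. With its own 2 residual degrees of freedom, Cd5l had an unadjusted p of 0.017 and an adjusted p of 0.78. Its interval on the log2 scale was then 0.29 to 1.04, which still lay above 0. Without WT replicate 2 the difference was 0.62 with an adjusted p of 0.10.

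**Figure D1:**
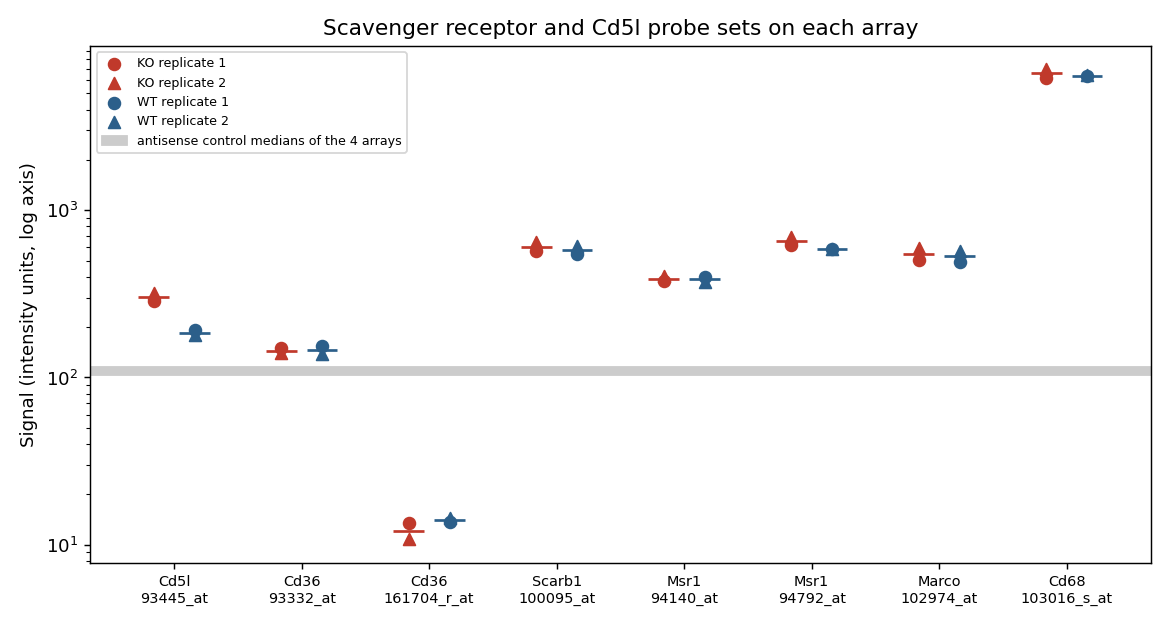
Signal of each probe set with values on each array (log axis), KO in red on the left of each pair and WT in blue, circles for replicate 1 and triangles for replicate 2, with a bar at the mean of the 2 arrays and a grey band over the antisense control medians. For Cd5l the KO arrays (287.5 and 320) stand clear of the WT arrays (191.7 and 178.4), and the second Cd36 probe set lies far below the band.

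Cd36, the fatty acid translocase that also takes up oxidised LDL, read 149.1 and 140.3 in KO, against 153.6 and 138.0 in WT. The KO arrays fell inside the range of the WT arrays. The means were 145 ± 6.22 in KO and 146 ± 11.0 in WT (SD, n = 2 each), a log2 difference of -0.0087 (SE 0.11, limma adjusted p = 0.9997). The interval of 95% ran from -0.22 to 0.21, or from 0.856-fold to 1.15-fold, and with the probe set's own spread from -0.35 to 0.34 on the log2 scale. These signals were dim. All 4 exceeded the antisense control median of their array, but only that of WT replicate 1 exceeded its brightest antisense control, so a fall of Cd36 in KO had little room to be seen. The second probe set, whose suffix r marks probes picked by relaxed rules, read 13.5 and 10.8 in KO and 13.6 and 14.4 in WT. That is below the antisense controls on every array and below the signal filter, and it adds no measurement of Cd36.

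Scarb1, the other class B receptor, which exchanges cholesterol with high-density lipoprotein, read 568.9 and 643.7 in KO, against 544.6 and 607.7 in WT. The ranges overlapped, and replicate 2 was the higher array in both genotypes. The log2 difference was 0.07 (interval of 95% from -0.22 to 0.36, limma adjusted p = 0.9997). In fold this interval spans 0.861 to 1.28.

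Msr1, the class A receptor SR-A for acetylated and oxidised LDL, had a pair of tested probe sets. The dimmer read 375.3 and 403.8 in KO, against 396.4 and 374.7 in WT, with overlapping groups and a log2 difference of 0.01 (interval from -0.25 to 0.28). The brighter read 616.6 and 695.2 in KO, against 584.7 and 584.5 in WT. Here both KO arrays were above both WT arrays, with a log2 difference of 0.16 (interval from -0.13 to 0.45). Neither passed (limma adjusted p = 0.9997 for both). The interval of the brighter one reaches 1.36-fold, the highest bound among the probe sets that did not pass, and the difference of the dimmer one lies inside it.

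Marco, the class A receptor that binds bacteria and inhaled particles, read 502.9 and 594.7 in KO, against 490.5 and 573.8 in WT. The arrays of the genotypes interleaved, with replicate 2 higher than replicate 1 in each. The log2 difference was 0.04 (limma adjusted p = 0.9997), with an interval from -0.24 to 0.33, or from -0.65 to 0.73 with the probe set's own spread, the widest of the set.

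Cd68 was far above the antisense controls on every array. It read 6210 and 6956 in KO, against 6355 and 6414 in WT, so the WT pair fell between the KO arrays. The log2 difference was 0.04 (interval from -0.24 to 0.32, limma adjusted p = 0.9997). Its probe set has the suffix s, given to probes that can match more than 1 transcript.

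The 6 probe sets that did not pass therefore shared intervals from 0.842-fold to 1.36-fold at the widest. A missed threshold does not show that these receptors were equal in both genotypes. With the spread pooled, a change of 1.5-fold or more lay outside the interval of the measured signal of each. For Cd36 this bounds the signal and not the transcript, since 3 of its 4 signals did not exceed the brightest antisense control. With each probe set's own spread the bounds widened to between -0.65 and 0.73 on the log2 scale.

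**Figure D2:**
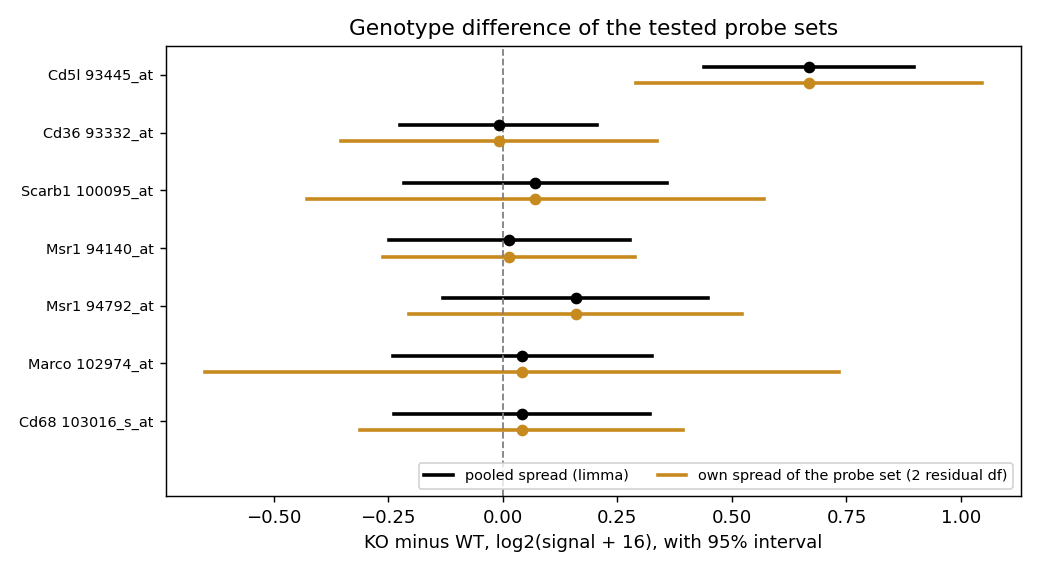
For each tested probe set, the mean log2(signal + 16) of KO less that of WT, with the interval of 95% from the spread pooled over probe sets in black and from the probe set's own spread in ochre. Both intervals of Cd5l lie above 0 (lower bounds 0.44 and 0.29), and those of the other 6 probe sets include it.

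The gaps between arrays of 1 genotype were as large as most of these differences. In all 6 probe sets that did not pass, the larger of the replicate gaps exceeded the difference between genotypes. KO replicate 2 was above KO replicate 1 in 5 of the 6, by up to 0.24 on the log2 scale for Marco. The same direction held in probe sets of the BioB, BioC, BioDn and CreX control transcripts, which are added to each hybridisation and carry no genotype. All 9 of these probe sets were higher on replicate 2 than on replicate 1, with medians of 0.31 on the log2 scale for KO and 0.20 for WT. Each transcript has more than 1 of them, so they are not 9 separate controls. The brightest decile of tested probe sets, which holds Cd68, was higher on KO replicate 2 by a median of 0.21 and on WT replicate 2 by 0.07. The part of this shift in the members' gaps was not tested. For Cd5l, the replicate gaps were 0.15 in KO and -0.095 in WT, against the difference of 0.67 between genotypes.

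**Figure D3:**
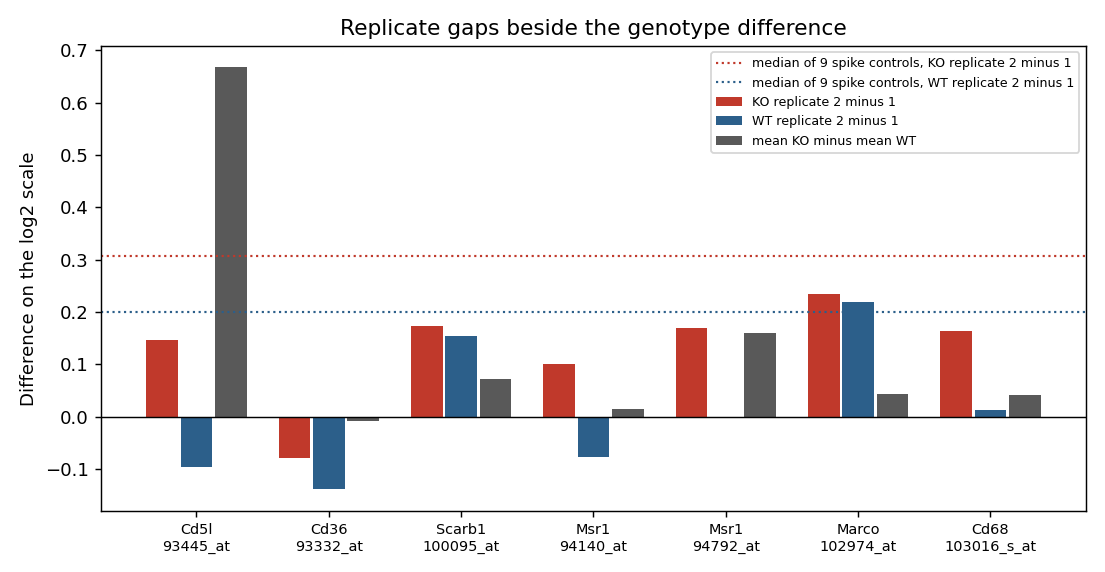
For each tested probe set, the log2 difference of replicate 2 minus replicate 1 within KO (red) and within WT (blue). Beside it stands the difference of the KO mean minus the WT mean (grey). Dotted lines lie at the median gap of the 9 probe sets of the added control transcripts. The grey bar is the tallest of the 3 only for Cd5l (0.67).

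The direction of Cd5l was the same under each of 17 alternative settings, with log2 differences from 0.56 to 0.74, and it passed in 15 of them. The settings that ended the call were those named above, the unmoderated test and the omission of WT replicate 2. The signs of the receptors did not hold in the same way. Cd36, Marco, Scarb1, Cd68 and the dimmer Msr1 probe set each changed sign in at least 1 setting, all at differences of less than 0.1 on the log2 scale. The brighter Msr1 probe set kept its sign in all 17 and passed in none.

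**Figure D4:**
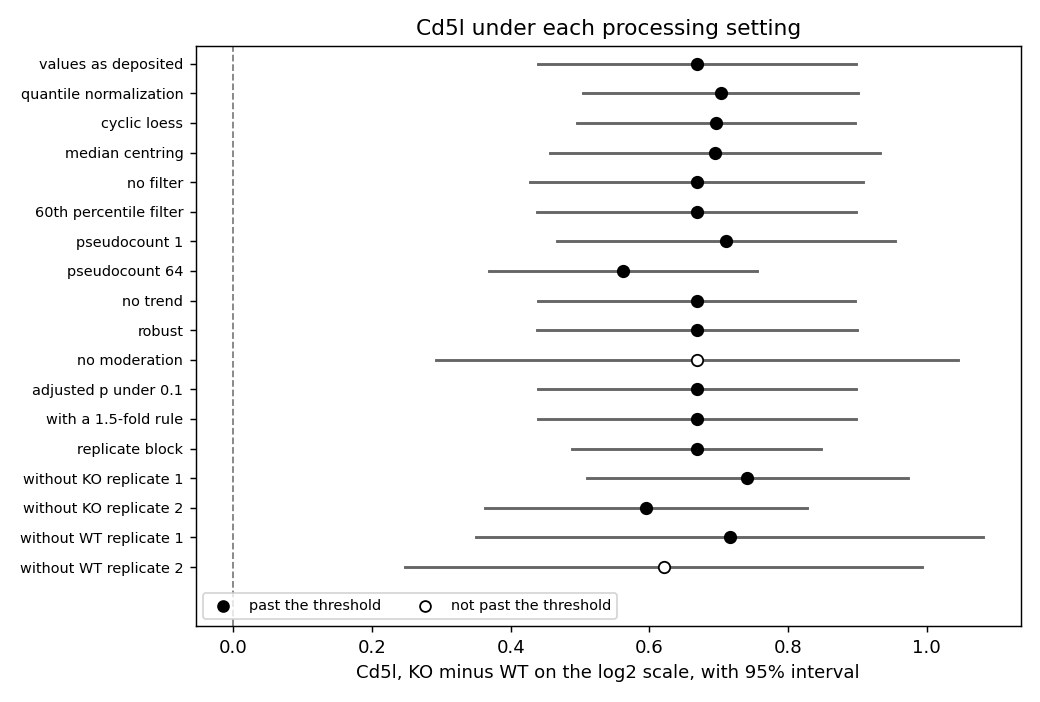
Cd5l difference of KO minus WT on the log2 scale with its interval of 95% under the values as deposited and each of 17 alternatives, filled where it passed the threshold. All estimates lie between 0.56 and 0.74, and the open points are the test without moderation and the fit without WT replicate 2.

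Over the 4 arrays, the genes whose centred log2 signals lay closest to those of Cd5l were C3ar1, a receptor for the complement fragment C3a, Dcn, the proteoglycan decorin, and Igf1, insulin-like growth factor 1. Their root mean square distances from Cd5l were 0.01, 0.04 and 0.05 on the log2 scale. C3ar1 read 1042 and 1150 in KO, against 713 and 651 in WT, a log2 difference of 0.67 (limma adjusted p = 0.00076). Dcn read 945 and 1060 in KO, against 616 and 561 in WT, a difference of 0.75 (limma adjusted p = 6.31e-05). Igf1 differed by 0.71 at its brightest probe set (limma adjusted p = 0.00020) and by 0.53 with its tested probe sets averaged (0.0091). C3ar1, Dcn and Igf1 were picked for their nearness to Cd5l on the same arrays. Their direction, the order of their replicates and their p-values follow from that choice and are given as a description. When either WT array was left out, each of them missed the threshold (adjusted p between 0.29 and 0.9999), as they did without moderation (0.78).

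Markers of other cells that a lavage can hold are given beside the Cd5l result. Of 6 tested fibroblast and mesothelial markers, 2 rose, where 1.06% of all genes did. The count is not read against that share, because Sparc passed the signal filter only through the KO arrays, where it is high. Dcn was above the filter in both genotypes. Sparc, a matrix glycoprotein, read 139.0 and 181.5 in KO against 96.6 and 98.5 in WT. That is at least 1.39-fold higher against the antisense control median that stands in for the dim WT signals. The adjusted p of 1.70e-06 belongs to the fitted log2 difference of 0.62, which uses those dim signals. All 6 had higher means in KO, a count that includes Sparc and is given as a description. The summed signal of the 10 markers with values was 2714 to 3096 in KO and 2133 to 2166 in WT. Dcn, the brightest of them, averaged 1002 in KO and 589 in WT and is the largest single part of both sums. Of the mesothelial markers, Msln, Wt1 and Krt19 were below the antisense control median on all 4 arrays. Upk3b, another, read 113.5 and 111.1 in KO, just above that median, and 102.7 and 107.9 in WT, just below it, and was under the signal filter. Of the markers of large peritoneal macrophages, the resident population, 0 of 3 tested passed by limma (1 had an unadjusted p under 0.05). Their summed signal over 8 genes was 1409 to 1609 in KO and 1545 to 1601 in WT. Their markers did not share a direction. F10, coagulation factor X, was the one with the small unadjusted p and read lower in KO, at 396.7 and 484.1 against 551.1 and 584.4 in WT (adjusted p = 0.20). Gata6, their defining factor, read 118.5 and 123.0 in KO against 102.4 and 88.7 in WT, below the signal filter. F5, coagulation factor V, read 41.8 and 41.2 in KO against 59.3 and 54.4 in WT, below the antisense control median on every array. The part of other cells in the Cd5l result was not tested.

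Of the remaining marker lists, neutrophil markers had 1 of 4 lower in KO, where 2.66% of all genes were (S100a8, 331 and 370 in KO against 517 and 542 in WT, adjusted p = 0.0015, missed without either WT array at 0.41 and 0.75). Macrophage markers had 1 of 11 lower, Mertk, described below. In the 9 of 12 marker lists with 0 calls by limma, 2 of 24 tested genes had an unadjusted p under 0.05. Over all tested probe sets, 605 of 6389 had one. The 2 genes were F10 of the large peritoneal macrophage list and Tfrc of the erythroid list.

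Other scavenger receptors and SRCR-domain proteins were followed in a list of 26 genes, of which 8 could be tested. Of these, 1 rose, 1 fell and 6 did not pass, beside 1.06% of all 5002 genes higher and 2.66% lower. The median log2 difference was -0.0015, against -0.02 over all genes. Mrc1, the mannose receptor, read 174.1 and 205.4 in KO, against 93.0 and 94.8 in WT. The WT signals lay below the antisense control median, which gives at least 1.63-fold (adjusted p = 1.04e-13), and the call held without each array in turn but not without moderation (0.78). Mrc1 passed the signal filter only through the KO arrays, so its place among the 8 tested genes depends on the difference itself. The count of 1 and the p-value of Mrc1 are therefore a description. Lgals3bp, a secreted galectin-binding glycoprotein that, like Cd5l, carries an SRCR domain, went the other way, with 1318 and 1592.5 in KO against 2125.5 and 2029 in WT (log2 difference -0.51, SE 0.16, adjusted p = 0.035). Its call ended on leaving out KO replicate 1 (0.091), WT replicate 1 (0.9997) or WT replicate 2 (0.9999), after median centring (0.12), without moderation (0.84) and under a 1.5-fold rule. Stab1, the scavenger receptor stabilin-1, read 130.5 and 159.3 in KO and 112.2 and 122.9 in WT and did not pass (0.27).

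Genes that handle lipoprotein lipid after uptake gave 1 rise, 0 falls and 15 that did not pass among 16 tested, beside 1.06% of all genes higher and 2.66% lower, with a median log2 difference of -0.07. The 1 that rose, Fabp4, encodes a carrier of fatty acids and is a known PPARγ target. It read 146.5 and 172.5 in KO against 132.7 and 110.9 in WT (log2 difference 0.35, adjusted p = 0.042), and WT replicate 2 lay below the antisense control median. The call ended without KO replicate 2 (0.40), WT replicate 1 (0.14) or WT replicate 2 (0.9999), without a signal filter (0.069), without the trend (0.058), with robust moderation (0.0504), without moderation (0.92) and under a 1.5-fold rule. Apoe, the apolipoprotein that carries cholesterol out of macrophages, averaged 5815 ± 839 in KO and 4477 ± 35.6 in WT (SD, n = 2 each; adjusted p = 0.21). Apoe passed, as higher in KO, after quantile normalization (2.99e-05) and cyclic loess (4.34e-05), without the trend (0.038), with the replicate block (0.019) and without KO replicate 1 (0.00011). Lipa, the lysosomal lipase for cholesteryl esters, averaged 810.5 ± 83.2 in KO and 1031 ± 77.0 in WT (adjusted p = 0.37). With all arrays kept, Lipa passed, as lower in KO, after quantile normalization (0.025) and cyclic loess (0.010) and with the replicate block (0.016). Its log2 difference was -0.34, and -0.45 without KO replicate 2.

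Nuclear receptors and other factors known to act on scavenger receptor genes had 0 of 11 past the threshold by limma, beside 3.72% of all genes. An unadjusted p under 0.05 was found for 2 of the 11, and for 605 of 6389 tested probe sets. Nr1h3, which encodes LXRα, read 222.0 and 242.9 in KO, against 285.9 and 323.9 in WT, with groups that did not overlap (log2 difference -0.37, SE 0.12, adjusted p = 0.061). It passed, as lower in KO, after quantile normalization (0.038), cyclic loess (0.030), without the trend (0.038), with the replicate block (0.0017), without KO replicate 2 (0.013), with a gene's probe sets averaged (0.036) and at the looser threshold of 0.1. Cebpb read 1235 and 1594.5 in KO and 1695 and 1816 in WT (adjusted p = 0.50). With all arrays kept, Cebpb passed, as lower in KO, after quantile normalization (0.037) and cyclic loess (0.0049) and with the replicate block (0.041). Without KO replicate 2 its log2 difference was -0.50. Jun averaged 360 in KO and 303.5 in WT (adjusted p = 0.63). The median over the 11 was -0.03.

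Partners of scavenger receptors in uptake and signalling had 0 rises, 1 fall and 15 that did not pass among 16 tested, beside 1.06% of all genes higher and 2.66% lower, with a median of -0.09. The faller was Mertk, a receptor tyrosine kinase for apoptotic cells, which read 134.7 and 150.5 in KO, against 225.6 and 233.4 in WT (log2 difference -0.63, SE 0.11, adjusted p = 1.37e-06). It passed without each array in turn but not without moderation (0.78). Vav1, an exchange factor downstream of CD36, averaged 735 ± 140 in KO and 965 ± 107 in WT (adjusted p = 0.19). Cd81, a tetraspanin, averaged 269 ± 47.7 in KO and 218 ± 14.2 in WT (adjusted p = 0.28). With all arrays kept, Vav1 passed, as lower in KO, after quantile normalization (0.012) and cyclic loess (0.0045). It also passed without the trend (0.020) and with the replicate block (0.0030). In the fits of all arrays, Cd81 passed, as higher in KO, only with the replicate block (0.036). Without KO replicate 2 the Vav1 log2 difference was -0.59, and without KO replicate 1 that of Cd81 was 0.45. Of the 16, 6 had an unadjusted p under 0.05, where 605 of 6389 tested probe sets did.

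**Figure D5:**
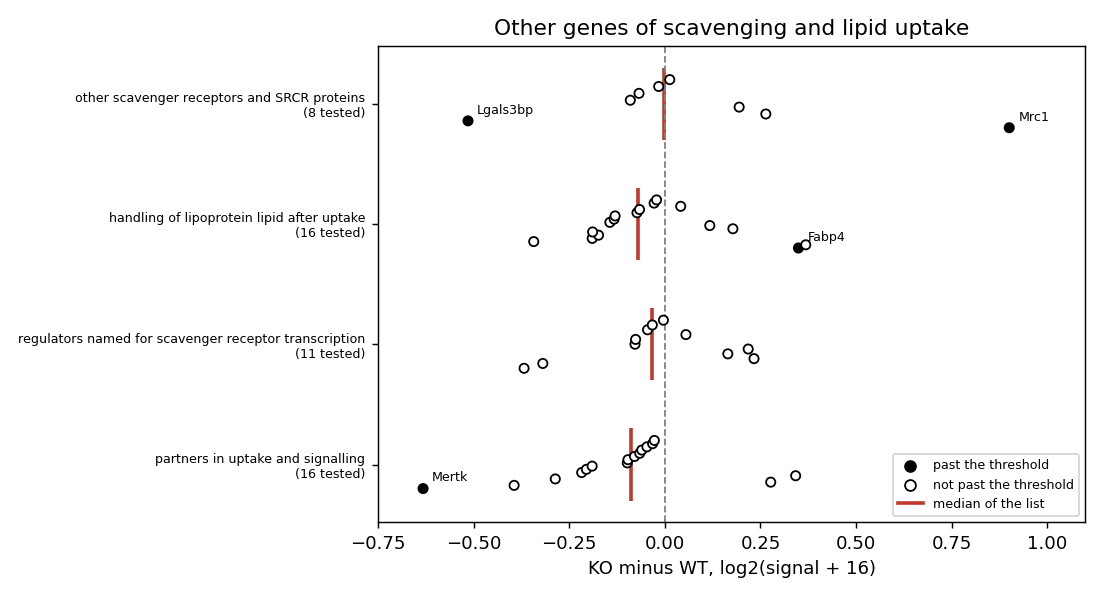
For each tested gene of 4 lists, the mean log2(signal + 16) of KO less that of WT, 1 point per gene at its brightest probe set, filled where it passed the threshold, with a red line at the list's median. The 4 genes past the threshold are Mrc1 (at least 1.63-fold, drawn at its fitted difference although its WT signals lie below the antisense controls) and Fabp4 (0.35) above 0 and Lgals3bp (-0.51) and Mertk (-0.63) below it, and the medians lie between -0.09 and -0.0015.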

How the data were processed

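The deposited table holds an intensity for each probe set on each array, and its range shows a linear scale. Probe summary, background handling and scaling are not given in the sources used here. Per the labels' protocols, 10 µg of RNA went into labelling. The table has 12488 rows, among them 1780 with no value on any array and 59 controls. Probe sets with 1 gene in the platform annotation were named, and all 10 member probe sets matched the GRCm38.p6 gene table by gene identifier. Array medians differed by at most 0.05 on the log2 scale, so no further scaling was applied. The test kept probe sets whose mean log2(intensity + 16) exceeded the 40th percentile. limma 3.58.1 (R 4.3.3, eBayes with an intensity trend) tested KO against WT. Alternatives changed the scaling, the filter, the pseudocount, the moderation, the threshold, the replicate block and the arrays included. An exact permutation test of 2 arrays against 2 cannot give less than 0.33. A gene of a list was represented by its brightest probe set. The code was tested on simulated data with 200 changed probe sets. The members, 4 pathway lists and 12 marker lists were chosen with earlier results of these data known. All members, Pparg, list members past the threshold or with the smallest p, and the 3 genes most like Cd5l are named. Other genes named as examples were picked after their values were seen. Figures used matplotlib 3.10.9.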

Additional observations from a re-analysis of the deposited data

How the results depend on the processing

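The number of arrays and, for Cd36, a signal close to the antisense controls limit these results. Cd5l (log2 difference 0.67) was past the threshold in 15 of 17 alternatives and missed it without moderation (0.67, adjusted p = 0.78) and without WT replicate 2, so the set's calls fell to 0 in both. Leaving out 1 array at a time gave Cd5l differences from 0.59 to 0.74 and 0 to 1 member calls. Signs turned in members that never passed. Cd36 was 0.025 after quantile normalization, 0.019 after cyclic loess, 0.018 after median centring, and between -0.078 and 0.061 with 1 array left out. Leaving out 1 array gave Marco -0.075 to 0.16, Scarb1 -0.016 to 0.16, Cd68 -0.040 to 0.12, and the dimmer Msr1 probe set -0.037 to 0.065. The 60th percentile filter removed Cd36, so it has no value there.

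Over all tested probe sets, 227 passed, 65 higher and 162 lower (28.6% higher). Quantile normalization called 420 (170 higher and 250 lower, 40.5% higher), cyclic loess 435, a replicate block 480, a 1.5-fold rule 90, and the fit without moderation 0, with 388 at an unadjusted p under 0.05. Leaving out 1 array gave 54 to 327 calls: 251 without KO replicate 1, 327 without KO replicate 2, 72 without WT replicate 1 and 54 without WT replicate 2. The cause was not tested. Such a fit takes the spread of the lone array from the other genotype.

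Calls in the other scavenger receptor list (2 as reported) numbered 1 after median centring, with the 60th percentile filter or with the 1.5-fold rule, and 0 without moderation. Calls in the lipid handling list (1 as reported) numbered 3 after quantile normalization, cyclic loess or with the replicate block, and 0 without a filter, with the 60th percentile filter, with robust moderation, without moderation or with the 1.5-fold rule. Without the trend the count stayed at 1, but the call was Apoe and not Fabp4. Calls among the regulators (0 as reported) numbered 2 after quantile normalization, cyclic loess or with the replicate block, and 1 without a filter, without the trend, at an adjusted p of 0.1 or when probe sets of a gene were averaged. Calls among the partners (1 as reported) numbered 3 after quantile normalization or cyclic loess, and 5 with the replicate block. Those added in all of these settings were Vav1, lower in KO, and Cd9, higher in KO. The block further added Cd81, higher in KO, and Myd88, lower in KO. Partner calls numbered 2 without a filter or without the trend, and 0 without moderation. The call added without a filter was Axl among the partners and Pparg itself among the regulators. Both lay below the antisense control median on all 4 arrays. Leaving out 1 array gave 1 to 2, 0 to 2, 0 to 2 and 1 to 3 calls in these lists. The replicate number as a block changed no member's call. Arrays of the same number deviated together over tested probe sets (correlation 0.42), but 2 pairs do not establish a pairing.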
